A study of Homo sapiens
Mus musculus with 6 samples.

Results

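The genes described here are the 4 mouse Id genes, Id1, Id2, Id3 and Id4, and the 2 inhibitory Smad genes, Smad6 and Smad7. They were taken by name from the mouse expression table, in which they are 6 of 23433 gene entries, and all 6 had at least 1 read. RNA sequencing had been done on 6 wells in which mouse C2C12 myoblasts, a skeletal muscle precursor line, were grown together with human HEK293-Flp-In cells, an embryonic kidney line. The myoblasts received Notch ligand from the HEK cells, and each species was counted in its own table. An exception is the ligand gene Jag1, whose reads in the mouse table followed the HEK line. The groups were C2C12-Notch1 cells with HEK-Jag1WT, HEK-Jag1Ndr or HEK-control cells, and C2C12-control cells with the same 3 HEK lines, at 1 well per combination.

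C2C12-Notch1 cells stably carry full-length Notch1 and were kept under puromycin, per the labels. HEK-Jag1WT and HEK-Jag1Ndr cells were kept under hygromycin. Jag1WT is the normal ligand, and Jag1Ndr is encoded by the Nodder allele, which has a missense change in Jag1. All C2C12 wells, those of the control line included, had been seeded 8 h before transfection and given 1.6 ug of the plasmid pcDNA5 per well. HEK cells were added 18 h after the transfection, and the wells were lysed 6 h later. The promoters of the introduced genes, and whether each line is a single clone, are stated in none of the sources used here. Separate cultures are not named in the labels either, and no combination of lines has a repeat well. Each p-value therefore sets an estimated difference against the spread that its model leaves unexplained, not against spread between repeat cultures. In the model with additive terms for the C2C12 line and the HEK line, effects particular to a pair of lines count as such spread. The remainder of that spread may be technical.

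Id proteins are helix-loop-helix proteins that lack the basic stretch needed to hold DNA. They bind the E proteins, and so keep these from pairing with myogenic factors such as MyoD, which holds myoblasts undifferentiated. Bone morphogenetic proteins (BMPs) switch on Id genes through their receptors and the transcription factors Smad1, Smad5 and Smad9. The same signal induces Smad6 and Smad7, whose products block the receptors' access to those Smads and so close a feedback loop.

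The wells held 2263529 to 7965231 mouse reads and 4081452 to 10292878 human reads, and the shallowest in the mouse table was the HEK-Jag1WT well of the Notch1 line. Mouse reads made up 29.6% to 36.5% of gene reads in C2C12-Notch1 wells and 47.2% to 52.7% in C2C12-control wells; fewer cells of a species and less RNA per cell cannot be told apart here. Notch1 lay at 158 to 179 RPKM in C2C12-Notch1 wells and at 9.06 to 20.4 RPKM in C2C12-control wells, where RPKM is reads per kilobase of gene model, scaled to the reads of that species in the well. Of 8 myoblast markers in the mouse table, 7 had mean levels from 22.5 RPKM (Myog) to 476 RPKM (Des), and Cav3, a late muscle gene, averaged 0.328 RPKM. Of 10 HEK markers, 6 were at 0 in the mouse table, among them Sall4, Epcam, Krt18, Pax2 and Wt1. The HEK marker levels of a well summed to 1.72 to 2.83 RPKM in the mouse table and to 527 to 670 RPKM in the human table.

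In C2C12 cells Id3 was the most abundant of the 6 genes, with a mean of 102 RPKM over the 6 wells. Id1 followed at 54.9 RPKM, Id2 at 25.7 RPKM, Smad7 at 5.15 RPKM, Smad6 at 1.12 RPKM and Id4 at 0.161 RPKM. The order was the same in each of the 6 wells. The ranges over wells overlapped between Id3 and Id1 (40.8 to 169 against 32.0 to 99.0 RPKM) and between Id1 and Id2 (32.0 to 99.0 against 15.5 to 47.5 RPKM). Smad7, at 4.57 to 5.68 RPKM, was apart from both neighbours in this order.

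**Figure D1:**
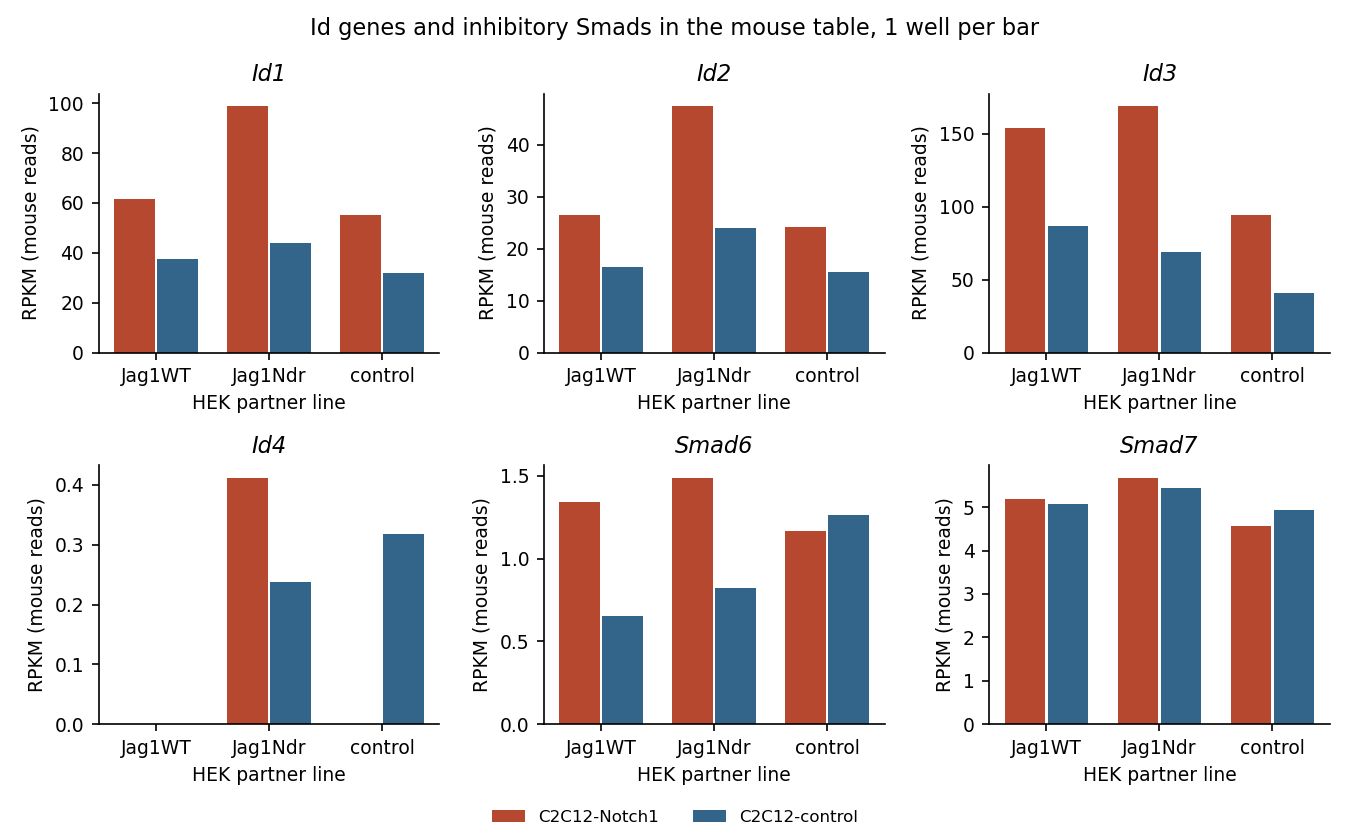
RPKM of the 6 mouse genes (y axes, each from 0, with its own scale) by HEK partner line (x axes), with 1 well per bar, red for C2C12-Notch1 and blue for C2C12-control. Id3 is above its HEK-control bar beside both Jag1 partners, Id1 and Id2 stand highest beside HEK-Jag1Ndr, and Smad7 lies between 4.57 and 5.68 RPKM throughout.

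Id3 was higher in the myoblasts beside both Jag1 partners, while Id1 and Id2 were called beside HEK-Jag1Ndr and not beside HEK-Jag1WT. Neither inhibitory Smad was called beside either partner. The effect of a HEK line was estimated over both C2C12 lines in 1 additive model with edgeR's quasi-likelihood test, and both comparisons use the same 2 HEK-control wells. A gene was called at an adjusted p under 0.05 over 11365 tested mouse genes. Id4 did not have enough reads to be tested, so 5 of the 6 genes entered.

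Id3 encodes the Id protein with the highest transcript level here. In C2C12-Notch1 wells it had 154 RPKM beside HEK-Jag1WT, 169 RPKM beside HEK-Jag1Ndr and 94.2 RPKM beside HEK-control. In C2C12-control wells it had 87.1 RPKM beside HEK-Jag1WT, 68.7 RPKM beside HEK-Jag1Ndr and 40.8 RPKM beside HEK-control. Within each C2C12 line both Jag1 wells were above the HEK-control well, and all C2C12-Notch1 wells were above all C2C12-control wells. Beside HEK-Jag1WT the log2 difference from HEK-control was 0.93 (SE 0.10, 1.90-fold, edgeR adjusted p 4.21e-10). Beside HEK-Jag1Ndr it was 0.82 (SE 0.0933, 1.76-fold, edgeR adjusted p 4.51e-08), the 2nd smallest p of all tested genes. The call beside HEK-Jag1Ndr was kept in DESeq2 and lost in limma under all 3 settings tried (adjusted p 0.242 to 0.9). The one beside HEK-Jag1WT was lost in limma without a filter on low counts (adjusted p 0.0916). Between the Jag1 partners, HEK-Jag1Ndr minus HEK-Jag1WT, the log2 difference of Id3 was -0.11 (95% interval -0.29 to 0.07, edgeR adjusted p 0.788).

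Id1 encodes the Id protein best known as an early BMP target. In C2C12-Notch1 wells it had 61.7 RPKM beside HEK-Jag1WT, 99.0 RPKM beside HEK-Jag1Ndr and 55.0 RPKM beside HEK-control. In C2C12-control wells it had 37.4 RPKM beside HEK-Jag1WT, 44.1 RPKM beside HEK-Jag1Ndr and 32.0 RPKM beside HEK-control. The HEK-Jag1Ndr well was the highest and the HEK-control well the lowest within each line. Beside HEK-Jag1Ndr the log2 difference from HEK-control was 0.71 (SE 0.107, 1.64-fold, edgeR adjusted p 2.4e-05). Beside HEK-Jag1WT it was 0.27 (95% interval 0.01 to 0.52, edgeR adjusted p 0.327), which did not pass. The call beside HEK-Jag1Ndr was lost when the HEK-Jag1Ndr well (log2 0.46, edgeR adjusted p 0.226) or the HEK-control well (0.54, edgeR adjusted p 0.0646) of the Notch1 line was left out, and in DESeq2 (adjusted p 0.603) and limma (adjusted p 0.412 to 0.986).

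Id2 encodes another Id protein of myoblasts. In C2C12-Notch1 wells it had 26.4 RPKM beside HEK-Jag1WT, 47.5 RPKM beside HEK-Jag1Ndr and 24.2 RPKM beside HEK-control. In C2C12-control wells it had 16.5 RPKM beside HEK-Jag1WT, 24.0 RPKM beside HEK-Jag1Ndr and 15.5 RPKM beside HEK-control. The HEK-Jag1Ndr well was again the highest within each line, and the HEK-Jag1WT wells lay close to their HEK-control wells. Beside HEK-Jag1Ndr the log2 difference from HEK-control was 0.85 (SE 0.122, 1.80-fold, edgeR adjusted p 8.93e-06), and beside HEK-Jag1WT it was 0.18 (95% interval -0.12 to 0.49, edgeR adjusted p 0.685). The call beside HEK-Jag1Ndr remained without any 1 well and was lost in DESeq2 (adjusted p 0.547) and limma (adjusted p 0.242 to 0.9).

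Id4 was nearly silent in the myoblasts. It had 0, 3 and 0 reads in C2C12-Notch1 wells with HEK-Jag1WT, HEK-Jag1Ndr and HEK-control, and 0, 3 and 2 reads in C2C12-control wells in the same order. Every well was at or under 3 reads, which corresponds to 0.238 to 0.838 RPKM at these depths, so no fold is given.

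The inhibitory Smads did not move with the Id genes to a degree that the test called. Smad7, which encodes the inhibitory Smad of both the BMP and the TGF-beta branch, had 5.18, 5.68 and 4.57 RPKM in C2C12-Notch1 wells with HEK-Jag1WT, HEK-Jag1Ndr and HEK-control. It had 5.07, 5.45 and 4.94 RPKM in C2C12-control wells in the same order. Both Jag1 wells were slightly above the HEK-control well within each line. The log2 difference was 0.14 beside HEK-Jag1WT (95% interval -0.19 to 0.46, edgeR adjusted p 0.801) and 0.24 beside HEK-Jag1Ndr (95% interval -0.04 to 0.53, edgeR adjusted p 0.767). The upper bounds, 0.46 and 0.53, lie under the values of Id3 beside the same partners.

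Smad6, which encodes the inhibitory Smad that acts mainly on BMP receptors, was counted from 9 to 20 reads per well. It had 1.34, 1.49 and 1.16 RPKM in C2C12-Notch1 wells with HEK-Jag1WT, HEK-Jag1Ndr and HEK-control, and 0.656, 0.823 and 1.27 RPKM in C2C12-control wells in the same order. Beside either Jag1 partner it was thus above the HEK-control well in the Notch1 line and below it in the control line. The log2 difference was -0.30 beside HEK-Jag1WT (95% interval -1.19 to 0.60, edgeR adjusted p 0.863) and -0.05 beside HEK-Jag1Ndr (95% interval -0.80 to 0.71, edgeR adjusted p 0.993). Both upper bounds lie under the values of Id3 beside the same partners (0.93 and 0.82). Beside HEK-Jag1Ndr, however, the interval of Smad6 overlaps with that of Id3 (0.63 to 1.00). A fall of Smad6 by the size of the Id3 increase beside HEK-Jag1WT lies within its interval there.

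Beside HEK-Jag1WT, 1 of the 5 tested genes was thus higher and 0 were lower, where 4.46% of all tested genes were called, 2.7% higher and 1.76% lower. Beside HEK-Jag1Ndr, 3 of 5 were higher and 0 lower, where 0.528% of all tested genes were called, 0.431% higher and 0.0968% lower. The median log2 difference of the 5 genes was 0.18 beside HEK-Jag1WT and 0.71 beside HEK-Jag1Ndr, where the medians of all tested genes were -0.00 and 0.00. Id3, Id2 and Id1 had the 2nd, 6th and 7th smallest p beside HEK-Jag1Ndr. By size of increase they ranked 55th, 49th and 83rd there, and Id3 ranked 112th beside HEK-Jag1WT. Id3 was 1 of 41 genes, 0.361% of those tested, called higher beside both partners. With scaling by library size alone, 47.1% of the genes called beside HEK-Jag1WT were higher (60.6% with TMM scaling), and 69.2% of those called beside HEK-Jag1Ndr (81.7% with TMM scaling).

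**Figure D2:**
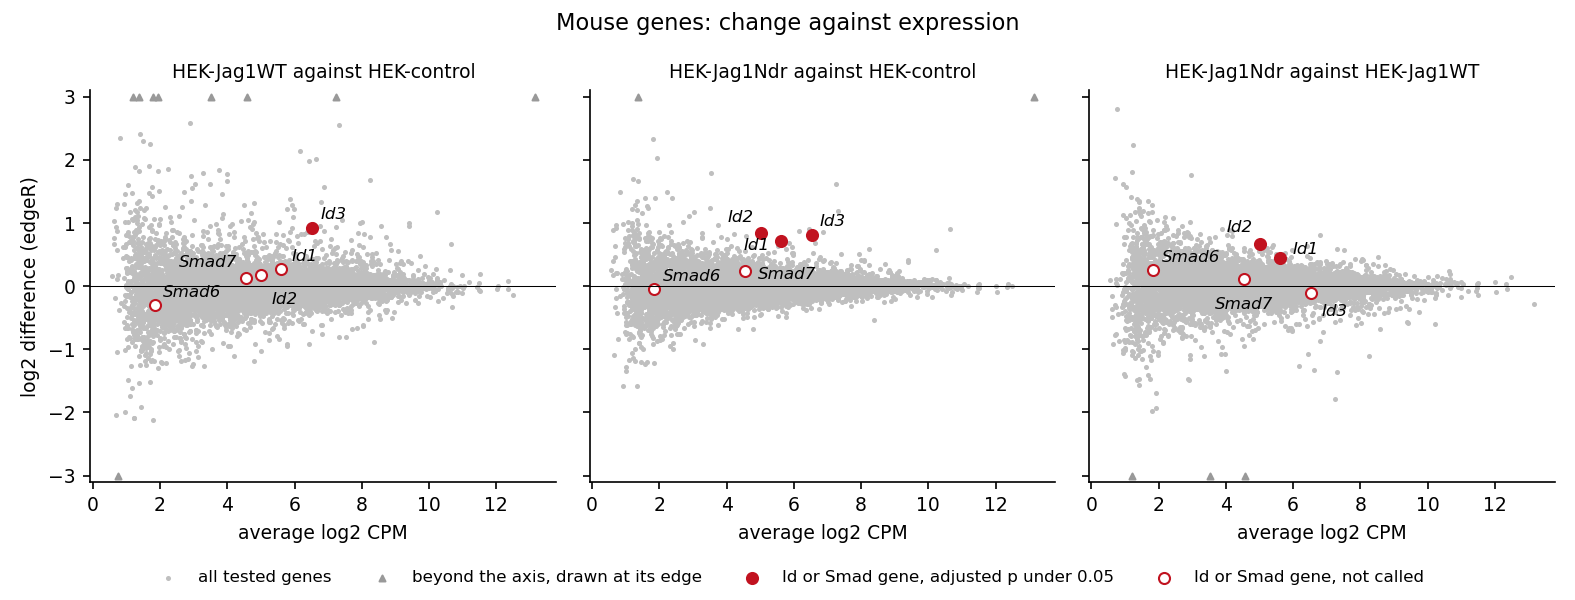
log2 difference (y axis, edgeR) against average log2 CPM (x axis) for 11365 mouse genes in 3 HEK partner comparisons, with the 5 tested genes in red, filled where the adjusted p is under 0.05 and open otherwise. Id3 stands above the cloud in both comparisons with HEK-control, and Id1 and Id2 do so in the 2 comparisons that involve HEK-Jag1Ndr on top.

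The Jag1 partners differed from each other in Id1 and Id2. For HEK-Jag1Ndr minus HEK-Jag1WT, 2 of 5 genes were higher and 0 lower, where 2.03% of all tested genes were called, 0.686% higher and 1.35% lower. Id1 differed by log2 0.44 (SE 0.113, 95% interval 0.22 to 0.67, edgeR adjusted p 0.0169) and Id2 by 0.67 (SE 0.131, 95% interval 0.40 to 0.93, edgeR adjusted p 0.000718). The differences were 0.25 for Smad6 (95% interval -0.62 to 1.12, edgeR adjusted p 0.949) and 0.11 for Smad7 (95% interval -0.19 to 0.40, edgeR adjusted p 0.922). Neither call was made in DESeq2, which gave Id2 no adjusted p, or in limma (adjusted p 0.262 to 0.561 for Id1 and 0.129 to 0.383 for Id2), and both rest on 2 wells of the Notch1 line. With its HEK-Jag1WT well left out the edgeR adjusted p was 0.679 for Id1 and 0.0854 for Id2, and with its HEK-Jag1Ndr well left out it was 0.757 for Id1 and 0.126 for Id2.

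Within 1 C2C12 line each HEK partner had a single well, so these responses carry no test. They are log2 ratios of CPM (reads scaled to the TMM library size of the well) with exact 95% counting intervals, which cover counting error only. In the Notch1 line beside HEK-Jag1Ndr, the 3 Id genes were close together, at 0.99 for Id2 (0.71 to 1.30), 0.88 for Id3 (0.71 to 1.06) and 0.88 for Id1 (0.65 to 1.12). They ranked 7th, 9th and 10th from the highest of 9188 genes with at least 100 reads in the pair of wells, of which 0.435% were at least 1.5-fold higher. In the control line beside HEK-Jag1Ndr the log2 ratios were 0.62 for Id2 (0.26 to 1.02), 0.76 for Id3 (0.51 to 1.04) and 0.46 for Id1 (0.16 to 0.79). They ranked 47th, 21st and 142nd of 9728 genes, of which 0.658% were at least 1.5-fold higher. All 6 intervals beside HEK-Jag1Ndr lay above 0.

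Beside HEK-Jag1WT, the log2 ratio of Id3 was above those of Id1 and Id2 in both lines. Its log2 ratio was 0.75 in the Notch1 line (0.55 to 0.96), the 75th highest of 8852 genes, of which 1.48% were at least 1.5-fold higher. In the control line it was 1.11 (0.85 to 1.40), the 27th highest of 9208 genes, of which 1.41% were at least 1.5-fold higher. The intervals of Id1 and Id2 included 0 in both lines. In the Notch1 line Id1 was at 0.21 (-0.11 to 0.52) and Id2 at 0.17 (-0.24 to 0.58), so the interval of Id2 overlapped with that of Id3. In the control line Id1 was at 0.24 (-0.11 to 0.60) and Id2 at 0.11 (-0.34 to 0.56), both intervals lying below that of Id3.

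Set directly against each other, HEK-Jag1Ndr over HEK-Jag1WT, the partners gave log2 ratios of 0.82 for Id2 (0.45 to 1.22) and 0.67 for Id1 (0.38 to 0.98) in the Notch1 line. Id2 was the 4th and Id1 the 22nd highest of 8376 genes there, of which 0.513% were at least 1.5-fold higher. In the control line Id2 was at 0.51 (0.18 to 0.88), the 100th of 9782 genes, and Id1 at 0.22 (-0.06 to 0.51). Id3 was at 0.13 in the Notch1 line (-0.07 to 0.33), where the interval included 0. In the control line it was at -0.35 (-0.55 to -0.16), thus lower in the HEK-Jag1Ndr well.

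**Figure D3:**
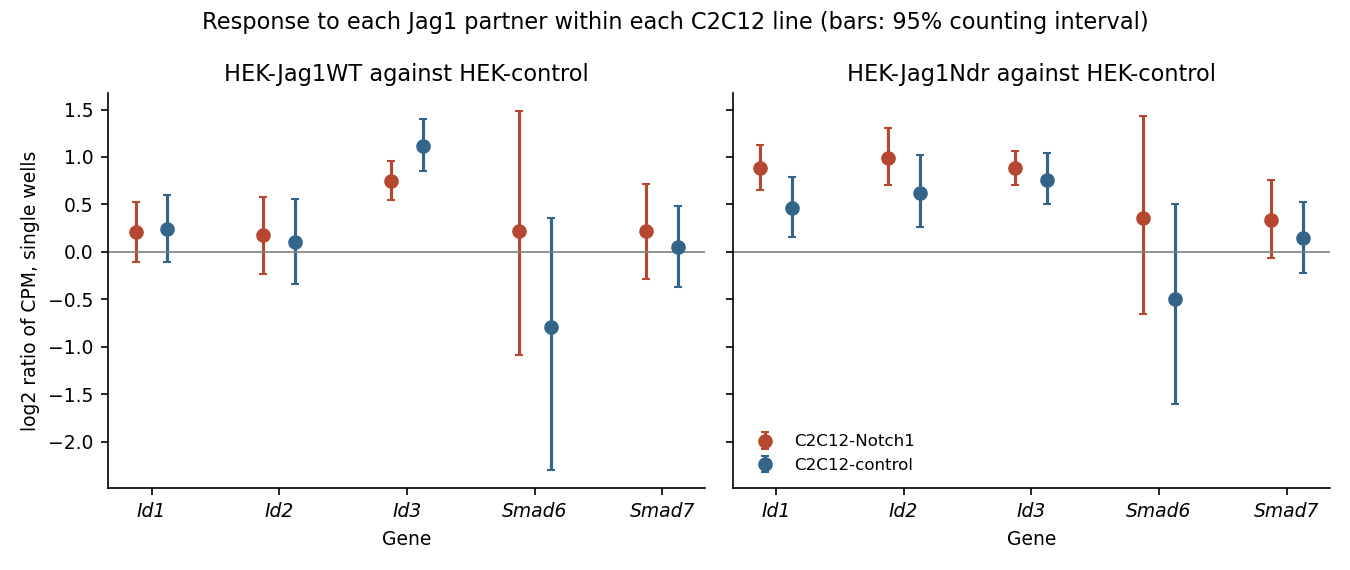
log2 ratio of CPM (y axis) beside HEK-Jag1WT (left) and HEK-Jag1Ndr (right) against HEK-control within each C2C12 line, for the 5 genes tested in the additive model (x axis). Smad6 had only 9 to 20 reads per well. Points are single wells against single wells and bars are 95% counting intervals; all 3 Id genes are above 0 in both lines beside HEK-Jag1Ndr, and Id3 alone of the 3 has an interval above 0 in both lines beside HEK-Jag1WT.

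Whether the C2C12 lines differed in their response to a Jag1 partner was tested in a model in which the 2 Jag1 partners served as 2 wells of 1 level. The model compares HEK lines, so the ligand and other differences between those lines cannot be told apart. In that model edgeR called 0 of 11637 genes (0%) for either Jag1 partner against HEK-control within the Notch1 line, within the control line, and for the difference between the lines. At an unadjusted p under 0.05 it counted 809, 519 and 439 genes, and DESeq2 called 2, 1 and 0. Jag1 itself was among the genes edgeR did not call, with 42347 to 63416 reads beside the Jag1 partners and 110 and 280 beside HEK-control. The lack of calls in this model is therefore no measure of whether the Id genes responded. Id3 had the 2nd smallest p within each line, with log2 differences of 0.83 in the Notch1 line (95% interval 0.54 to 1.12, edgeR adjusted p 0.144) and 0.93 in the control line (95% interval 0.58 to 1.28, edgeR adjusted p 0.414). The difference between these responses, Notch1 line minus control line, was -0.11 for Id3 (95% interval -0.56 to 0.35). It was 0.26 for Id1 (95% interval -1.0 to 1.53), 0.28 for Id2 (95% interval -1.98 to 2.54), 1.03 for Smad6 (95% interval -0.39 to 2.44) and 0.19 for Smad7 (95% interval -0.36 to 0.74). These 5 edgeR adjusted p-values were each 1.00 after rounding, and the intervals of Id1, Id2 and Smad6 spanned values larger than the responses themselves.

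Id3, Id1 and Id2 were higher in C2C12-Notch1 than in C2C12-control cells under every HEK partner. Id3 averaged 139 ± 39.6 RPKM in C2C12-Notch1 wells and 65.5 ± 23.3 RPKM in C2C12-control wells (SD, n = 3 each). The 3 wells of a line had 3 different HEK partners, so this SD and those below include the differences between partners. Id1 averaged 71.9 ± 23.7 RPKM in C2C12-Notch1 wells and 37.8 ± 6.02 RPKM in C2C12-control wells. Id2 averaged 32.7 ± 12.8 RPKM in C2C12-Notch1 wells and 18.7 ± 4.62 RPKM in C2C12-control wells. The log2 differences were 1.11 for Id3 (edgeR adjusted p 1.77e-18), 0.94 for Id1 (edgeR adjusted p 3.86e-13) and 0.82 for Id2 (edgeR adjusted p 2.17e-09), and these calls held under all 15 alternatives. Smad6 differed by 0.50 (edgeR adjusted p 0.199) and Smad7 by -0.02 (edgeR adjusted p 0.925). Of the 5 tested genes 3 were thus higher and 0 lower in this comparison, which called 57.8% of all tested genes, 28.4% higher and 29.4% lower.

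None of 14 BMP ligand genes had enough mouse reads to be tested; the highest, Bmp8a, had 14 reads over the 6 wells, and Bmp2 and Bmp7 had 0. Of 15 BMP receptor and Smad genes 11 were tested, and edgeR, DESeq2 and limma each called 0 in any HEK partner comparison. Over all tested genes edgeR called 4.46% beside HEK-Jag1WT, 0.528% beside HEK-Jag1Ndr and 2.03% between the Jag1 partners, so 0 of 11 is near the share of all genes. At an unadjusted edgeR p under 0.05 there were 3 beside HEK-Jag1WT, 0 beside HEK-Jag1Ndr and 1 between the Jag1 partners. Their median log2 difference was -0.02 beside HEK-Jag1WT and 0.01 beside HEK-Jag1Ndr. The most abundant of them were Bmpr1a, a type I receptor, at a mean of 31.0 RPKM, Smad4, the common partner Smad, at 29.2 RPKM and Smad5, a BMP-branch Smad, at 27.2 RPKM. Bmpr1a, for example, had 34.7, 32.6 and 31.0 RPKM in C2C12-Notch1 wells with HEK-Jag1WT, HEK-Jag1Ndr and HEK-control, and 28.4, 28.5 and 30.8 RPKM in C2C12-control wells in the same order.

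Of 18 BMP antagonists and co-regulators 12 were tested, with a median log2 difference of -0.07 beside HEK-Jag1WT and 0.01 beside HEK-Jag1Ndr. The most abundant were Fstl1, which encodes a secreted follistatin-like protein, at a mean of 284 RPKM, the secreted antagonist gene Nbl1 at 75.8 RPKM and the ubiquitin ligase gene Smurf1 at 48.5 RPKM. Beside HEK-Jag1WT 0 were higher and 1 was lower, Skil, a Smad co-repressor (log2 -0.27, edgeR adjusted p 0.0162), where 4.46% of all tested genes were called. DESeq2 and limma each called 0 there (Skil, adjusted p 0.799 in DESeq2 and 0.19 to 0.285 in limma). Beside HEK-Jag1Ndr edgeR, DESeq2 and limma each called 0, with 0 at an unadjusted edgeR p under 0.05. Over all tested genes edgeR called 0.528% there, so 0 of 12 is near that share. Skil was also higher beside HEK-Jag1Ndr than beside HEK-Jag1WT (0.32, edgeR adjusted p 0.00547), where 2.03% of all tested genes were called. It was the only gene of this list called there, and this call too was lost in DESeq2 (adjusted p 0.545) and limma (adjusted p 0.338 to 0.54). It had 22.7, 27.6 and 27.2 RPKM in C2C12-Notch1 wells with HEK-Jag1WT, HEK-Jag1Ndr and HEK-control, and 16.2, 20.8 and 20.6 RPKM in C2C12-control wells, so the HEK-Jag1WT well was the lowest in each line. The call against HEK-control was lost without the HEK-Jag1WT well of either line (edgeR adjusted p 0.0515 for C2C12-Notch1 and 0.439 for C2C12-control) or the HEK-control well of the control line (0.157). The one between the Jag1 partners was lost when the HEK-Jag1WT well (edgeR adjusted p 0.43) or the HEK-Jag1Ndr well (0.122) of the control line was left out.

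In C2C12-Notch1 against C2C12-control cells 2 antagonists and co-regulators were higher and 6 lower, and 3 receptor and Smad genes were higher and 4 lower. These are 8 of 12 and 7 of 11 tested genes, near the 57.8% of all tested genes called between the lines. Grem1, which encodes the secreted BMP antagonist gremlin, had 18.5, 17.0 and 17.1 RPKM in C2C12-Notch1 wells with HEK-Jag1WT, HEK-Jag1Ndr and HEK-control, and 70.9, 78.3 and 73.8 RPKM in C2C12-control wells in the same order. The lines did not overlap (log2 -2.11, edgeR adjusted p 3.99e-29). Whether this has a part in the Id levels of the 2 lines was not tested.

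Among 14 other genes known to respond to BMPs or Smads, 10 were tested, with a median log2 difference of 0.20 beside HEK-Jag1WT and 0.19 beside HEK-Jag1Ndr. Beside HEK-Jag1WT 2 were higher and 1 lower, where 4.46% of all tested genes were called, and DESeq2 called 1 and limma 2. Beside HEK-Jag1Ndr edgeR, DESeq2 and limma each called 0, with 3 at an unadjusted edgeR p under 0.05. There edgeR called 0.528% of all tested genes, so 0 of 10 is near the share of all genes. Runx2, an osteoblast regulator, was higher beside HEK-Jag1WT (log2 0.36, edgeR adjusted p 0.0109) and Dlx3, a homeobox gene, was lower (-0.40, edgeR adjusted p 0.00204). Both of these calls were lost when the HEK-Jag1WT well of the Notch1 line was left out (edgeR adjusted p 0.26 for Runx2 and 0.0877 for Dlx3), and that of Runx2 also on leaving out the HEK-control well of that line (0.524). In DESeq2 neither was called (adjusted p 0.757 for Runx2 and 0.316 for Dlx3), and limma called Runx2 under none of its 3 settings (adjusted p 0.359 to 0.484) and Dlx3 under 1 of them. Junb, an AP-1 factor gene at a mean of 59.2 RPKM, was not called. Atoh8, a helix-loop-helix gene induced by BMPs, had 3.20, 5.47 and 2.70 RPKM in C2C12-Notch1 wells and 2.07, 1.97 and 0.905 RPKM in C2C12-control wells, with HEK-Jag1WT, HEK-Jag1Ndr and HEK-control in that order, and was not called beside HEK-Jag1Ndr (log2 1.01, edgeR adjusted p 0.0984).

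Transcripts of some partners of the Id proteins differed with the HEK line. Of 10 tested partner genes 2 were higher and 2 lower beside HEK-Jag1WT, where 4.46% of all tested genes were called, and DESeq2 and limma each called 3. Beside HEK-Jag1Ndr 1 was higher and 0 lower, where 0.528% of all tested genes were called, and DESeq2 and limma each called 0. The median log2 differences were -0.08 beside HEK-Jag1WT and 0.02 beside HEK-Jag1Ndr. Tcf3, Tcf4 and Tcf12, the E protein genes, were called in neither comparison; Tcf3, the most abundant, averaged 92.5 RPKM. Myod1, the gene of the myogenic factor MyoD, had 52.2, 96.2 and 91.1 RPKM in C2C12-Notch1 wells with HEK-Jag1WT, HEK-Jag1Ndr and HEK-control, and 27.8, 47.3 and 49.0 RPKM in C2C12-control wells. It fell beside HEK-Jag1WT (log2 -0.77, edgeR adjusted p 4.03e-09), where Id3 alone of the Id genes was called. The other partners called beside HEK-Jag1WT were the myogenic factor gene Myf5 (1.34, edgeR adjusted p 1.83e-18), the ETS factor gene Ets1 (0.45, edgeR adjusted p 0.000234) and its relative Ets2 (-0.80, edgeR adjusted p 3.66e-12). The call of Ets1 was lost in DESeq2 (adjusted p 0.114) and limma (adjusted p 0.124 to 0.244). Myf5 was also the one called beside HEK-Jag1Ndr (0.46, edgeR adjusted p 0.00148), a call lost when the HEK-Jag1Ndr well (0.11) or the HEK-control well (0.149) of the Notch1 line was left out, and in DESeq2 (0.712) and limma (0.461 to 0.991). Between the Jag1 partners, HEK-Jag1Ndr minus HEK-Jag1WT, 2 of the 10 were higher, Myod1 and Ets2, and 2 lower, Myf5 and Ets1. Of all tested genes 2.03% were called there, 0.686% higher and 1.35% lower. The call of Ets1 was lost without any 1 of 3 wells, with edgeR adjusted p-values of 0.183, 0.46 and 0.414, and in DESeq2 (0.999). In limma the calls of Ets1 (adjusted p 0.45 to 0.624) and Ets2 (0.0768 to 0.277) were lost under all 3 settings, and those of Myod1 (0.174) and Myf5 (0.276) without a filter.

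The wells' pattern of Id1 was closer to that of Id2 than to that of Id3. After centring log2 CPM within each C2C12 line, Pearson's r over the 6 wells was 0.98 between Id1 and Id2, 0.68 between Id1 and Id3 and 0.55 between Id2 and Id3. Smad7 had r of 0.91 with Id1, though its spread after centring was small (SD 0.119 on the log2 scale, against 0.325 for Id1). Among 537 genes of sufficient level and spread, those most like Id1 were Fam115c (0.98), Id2, the interferon-induced gene Ifit1 (0.95), the Mediator subunit gene Med31 (0.90) and Dhrs13 (0.86). Those most like Id2 were Fam115c (0.98), Id1, Ifit1 (0.98), Dhrs13 (0.93) and Zc2hc1c (0.86). Those most like Id3 included Churc1 (0.98), Jag1 (0.97), the G protein signalling regulator gene Rgs16 (0.96) and the histone gene Hist1h2bc (0.96). Jag1 reads in the mouse table followed the HEK line, at 42347 to 63416 reads beside the Jag1 partners and 110 and 280 beside HEK-control. Jag1 is the ligand gene that those HEK lines carry, so its reads there cannot be taken as a myoblast transcript. These correlations describe 6 wells that also share their depth and scaling, and they carry no test.

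The ID genes also differed between the HEK lines of the same wells, in a pattern that was only partly that of the myoblasts. The human table was fitted separately, and 54.3% of its 13596 tested genes were called for HEK-Jag1WT and 46.1% for HEK-Jag1Ndr, each against HEK-control. ID1, ID2, ID3 and ID4 were called in both comparisons and SMAD6 and SMAD7 in neither, which is not far from these shares. Human ID3 had 15.5, 32.0 and 21.0 RPKM in wells of C2C12-Notch1 with HEK-Jag1WT, HEK-Jag1Ndr and HEK-control, and 9.25, 25.1 and 13.3 RPKM in wells of C2C12-control in the same order. It was lowest in HEK-Jag1WT cells (log2 -0.52, edgeR adjusted p 0.00263) and highest in HEK-Jag1Ndr cells (0.72, edgeR adjusted p 1.12e-06), while mouse Id3 was above its HEK-control level in both kinds of well. The human call in HEK-Jag1WT cells was lost when the HEK-control well of the Notch1 line (edgeR adjusted p 0.165) or the HEK-Jag1WT well of the control line (0.0778) was left out, and in DESeq2 (0.114).

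Human ID1 and ID2 were highest in HEK-Jag1Ndr cells, as mouse Id1 and Id2 were beside them. ID1 had 5.06, 25.6 and 9.24 RPKM in wells of C2C12-Notch1 with HEK-Jag1WT, HEK-Jag1Ndr and HEK-control, and 3.72, 12.9 and 3.45 RPKM in wells of C2C12-control. ID2 had 34.7, 87.8 and 69.3 RPKM in wells of C2C12-Notch1 and 35.0, 91.0 and 74.9 RPKM in wells of C2C12-control in the same order. In HEK-Jag1Ndr cells the log2 differences from HEK-control were 1.51 for ID1 (edgeR adjusted p 8.4e-11) and 0.32 for ID2 (edgeR adjusted p 0.000572). In HEK-Jag1WT cells they were -0.67 for ID1 (edgeR adjusted p 0.0232) and -1.06 for ID2 (edgeR adjusted p 5.95e-15). The call of ID1 in HEK-Jag1WT cells was lost when the HEK-Jag1WT well (log2 -0.24, edgeR adjusted p 0.663) or the HEK-control well (-0.17, edgeR adjusted p 0.809) of the Notch1 line was left out, and in DESeq2 (adjusted p 0.337), as was that of ID2 in HEK-Jag1Ndr cells (DESeq2 adjusted p 0.0542).

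Human ID4 was lower in both Jag1 lines, so that in HEK-Jag1Ndr cells it went the other way from ID1, ID2 and ID3. It had 65.0, 61.9 and 72.3 RPKM in wells of C2C12-Notch1 with HEK-Jag1WT, HEK-Jag1Ndr and HEK-control, and 53.5, 48.8 and 71.1 RPKM in wells of C2C12-control in the same order. The log2 difference from HEK-control was -0.29 in HEK-Jag1WT cells (edgeR adjusted p 6.59e-05) and -0.37 in HEK-Jag1Ndr cells (edgeR adjusted p 9.25e-07). The call in HEK-Jag1WT cells was lost when the HEK-control well of the control line was left out (log2 -0.13, edgeR adjusted p 0.0674). ID4 also bears on how far human reads reached the mouse table, since it had 1068 to 2889 reads per well and mouse Id4 had 0 to 3 reads in those wells. The RPKM of the 2 tables were scaled separately, so only the reads are set side by side here. SMAD6 and SMAD7 were not called against HEK-control in the human table. Their log2 differences were -1.08 (edgeR adjusted p 0.0502) and -0.00 (edgeR adjusted p 0.984) in HEK-Jag1WT cells, and -0.25 (edgeR adjusted p 0.635) and -0.15 (edgeR adjusted p 0.422) in HEK-Jag1Ndr cells.

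BMP ligand genes were read in the HEK cells, since 0 of 14 could be tested in the myoblasts. Of 14 human ligand genes 9 were tested. Against HEK-control 1 was higher and 4 lower in HEK-Jag1WT cells, where 54.3% of all tested human genes were called, and 1 was higher and 3 lower in HEK-Jag1Ndr cells, where 46.1% were called. These 5 of 9 and 4 of 9 are near the shares of all genes. For HEK-Jag1Ndr minus HEK-Jag1WT 5 were higher and 2 lower, where 57.7% of all tested human genes were called. BMP2, a ligand known to turn C2C12 cells toward the osteoblast lineage, was the higher one in both. It had 3.04, 10.8 and 2.31 RPKM in wells of C2C12-Notch1 with HEK-Jag1WT, HEK-Jag1Ndr and HEK-control, and 3.18, 10.4 and 1.52 RPKM in wells of C2C12-control. The HEK-Jag1Ndr wells did not overlap with the others. The log2 difference from HEK-control was 0.59 in HEK-Jag1WT cells (edgeR adjusted p 0.0174) and 2.37 in HEK-Jag1Ndr cells (edgeR adjusted p 5.33e-20). The call in HEK-Jag1WT cells was lost when the HEK-Jag1WT well (edgeR adjusted p 0.104) or the HEK-control well (0.0882) of the control line was left out, and in DESeq2 (adjusted p 0.0999).

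BMP7, the most abundant ligand gene in HEK cells, had 11.4, 18.0 and 21.7 RPKM in wells of C2C12-Notch1 and 11.7, 22.3 and 24.1 RPKM in wells of C2C12-control, with HEK-Jag1WT, HEK-Jag1Ndr and HEK-control in that order. It was lower in HEK-Jag1WT cells (log2 -1.01, edgeR adjusted p 8.38e-15). Its call in HEK-Jag1Ndr cells (-0.19, edgeR adjusted p 0.047) was lost without any 1 of 5 wells, with edgeR adjusted p-values of 0.0556 to 0.562, and in DESeq2 (adjusted p 0.43). BMP6 had 12.7, 7.54 and 22.7 RPKM in wells of C2C12-Notch1 and 14.1, 8.28 and 19.3 RPKM in wells of C2C12-control in the same order, and was lower in both Jag1 lines (-0.70 in HEK-Jag1WT cells, edgeR adjusted p 1.06e-07, and -1.43 in HEK-Jag1Ndr cells, edgeR adjusted p 4.4e-17). The part of HEK-made BMPs in the Id levels of the myoblasts was not tested.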

How the data were processed

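RNA of 6 co-culture wells, 1 per combination of 2 mouse and 3 human lines, had been made into polyA libraries with a TruSeq v2 kit, which does not mark strand, per the labels' protocols. The submitters' processing notes list STAR, mm9 and hg19. No source used here gives the version of STAR, the read counter or the rule by which a read was assigned to a species. A mouse and a human table of whole-number counts were deposited, with a column per well and RefSeq genes down the side, per the file headers. RPKM columns stand beside the deposited counts, per the file headers. Reads of near-identical sequences of the other species could have been counted in a table, and this was not tested beyond the values given in the report.

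Exact repeats were left out (472 of 23905 mouse and 448 of 24303 human entries), and 93 repeated mouse names were given a suffix. The deposited counts were tested with edgeR 4.0.16 in R 4.3.3, with TMM scaling, filterByExpr, the robust quasi-likelihood F-test and Benjamini-Hochberg adjustment over all tested genes of a table at 0.05. The additive model had terms for the C2C12 line and the HEK line over all 6 wells, with 2 residual degrees of freedom, so that each C2C12 line had 3 wells and each HEK line 2, and an effect particular to 1 pair of lines counted as spread. The common biological coefficient of variation was 3.89% in the mouse table. A second model had terms for the C2C12 line, either Jag1 partner and their interaction, also with 2 residual degrees of freedom. Single-well log2 ratios used TMM library sizes and a prior count of 2, and ranks are over genes with at least 100 reads in the pair of wells together. Counting intervals and the limit of 3 reads cover counting error only.

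The members and the gene lists were chosen with earlier results of these data known. Named were the 6 genes, every listed gene called in a HEK partner comparison, up to 3 of each list by mean RPKM, and the 5 genes most like each of Id1, Id2 and Id3 by Pearson's r, among those with a mean log2 CPM of at least 3 and a centred SD of at least 0.25; Atoh8 and Grem1 were added after their values were seen. Some genes that this rule names are not reported here. Alternatives were DESeq2 1.42.0, limma 3.58.1 on log2(RPKM + 0.5) and log2(RPKM + 0.1), other scalings, no filter, a non-robust fit, Jag1 left out, only the 4 wells compared, and each well left out. Both edgeR models were run on simulated data first, with changes placed in the HEK-Jag1WT wells only, and DESeq2 and limma were not. Sequences of the genes are not used here.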

Additional observations from a re-analysis of the deposited data

How the results depend on the processing

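Pairing by replicate was not possible because the labels give no replicate numbers and each combination of lines has 1 well. Through its term for the C2C12 line, the additive model compared HEK partners within each line. The cause of each change below was not tested. Values for the listed genes other than the 6, and for the human table, come from alternatives chosen after seeing the data. Over the 6 genes, 464 of their values under an alternative kept direction and side of the threshold, 25 lost and 6 gained a call, and 12 changed sign, none of them called. Genes called beside HEK-Jag1WT numbered 507, and 151 with DESeq2, 153, 130 and 23 with limma on log2(RPKM + 0.5), log2(RPKM + 0.1) and log2(RPKM + 0.5) without a filter, and 303 to 580 without 1 well; of the 6 genes 1 was called, and 0 with limma without a filter (Id3, adjusted p 0.0916). Beside HEK-Jag1Ndr 60 genes were called, 91 without a filter, 6 with DESeq2, 1, 1 and 1 with the limma settings and 40 to 84 without 1 well; of the 6 genes 3 were called, 1 (Id3) with DESeq2, 0, 0 and 0 with limma and 2 to 3 without 1 well, and limma gave Id3 adjusted p-values of 0.242 to 0.9. Between the Jag1 partners 231 genes were called, 41 with DESeq2, 9, 6 and 0 with limma and 138 to 313 without 1 well; of the 6 genes 2 were called, 0 with DESeq2, which gave Id2 no adjusted p, 0, 0 and 0 with limma and 0 to 2 without 1 well. The line comparison called 6569 genes and 3585 with DESeq2. For either Jag1 partner within the Notch1 line, 0 genes were called, 64 without a filter, 2 with DESeq2, 2 without robust estimation, 1, 1 and 11 with limma and 1 to 13 without 1 of the 4 Jag1 wells; of the 6 genes 2 (Id1 and Id3) were called without a filter and 0 to 1 without 1 well. Within the control line 0 genes were called, 54 without a filter, 1 with DESeq2, 1 without robust estimation, 1 and 1 with the filtered limma settings and 1 to 53 without 1 of the 4 Jag1 wells; of the 6 genes 1 (Id3) was called without a filter and 0 to 1 without 1 well. For the difference between the lines, 2 genes were called without a filter and 0 to 2 without 1 well. Signs turned, with no call, for 8 of the 6 genes' log2 differences when 1 well was left out. The difference of responses between the lines ran from -0.17 to 0.50 for Id1 and from -0.26 to 0.61 for Id2, both negative on leaving out the HEK-Jag1Ndr well of the Notch1 line, and from -0.29 to 0.056 for Id3, positive on leaving out the HEK-Jag1WT well of the control line. For HEK-Jag1Ndr minus HEK-Jag1WT, Id3 ran from -0.33 to 0.11, positive on leaving out either Jag1 well of the control line, and Smad6 from -0.12 to 0.55, negative on leaving out the HEK-Jag1WT well of that line. Smad6 ran from -0.85 to 0.17 beside HEK-Jag1WT and from -0.60 to 0.42 beside HEK-Jag1Ndr, positive in each on leaving out that partner's well or the HEK-control well of the control line. Smad7 ran from -0.071 to 0.047 between the C2C12 lines, positive on leaving out either HEK-control well. Depth limits Smad6, with at most 20 reads in a well, and Id4, with at most 3.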
